A study of Gallus gallus with 45 samples.

Results

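Among the genes of the chick neural plate border and neural crest that carry no gene symbol in the deposited table, 69 differed at least 4-fold in mean level between the late stages (8ss to 10ss) and the earliest ones (HH5 and HH6). The rule took the genes whose symbol field is empty, averaged the scaled expression value (CPM, counts scaled to library size) over the 10 libraries of 8ss, 9ss and 10ss and over the 8 libraries of HH5 and HH6, asked for at least 5 CPM in the higher of these means, and asked for a ratio of the means, each raised by 0.5 CPM, of at least 4 or at most 0.25. Of 18525 genes in the table, 6280 have no symbol, 1117 of these reach the level, and 69 also pass the ratio. They split into 28 genes that were higher late (late-high genes) and 41 that were higher early (early-high genes). An Entrez identifier was attached to 28 of the 69 genes, 9 late-high and 19 early-high, all of which RefSeq lists as protein coding, and 27 of them have a description; the other 41 are known here only by an Ensembl identifier. The share with an Entrez identifier was 40.6% in these genes, against 60.7% in all symbol-less genes at that level.

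The data are bulk RNA-seq of wild-type, untreated chick embryos, in 45 libraries at 12 stages: HH5, HH6, the 1-somite stage (1ss, labelled HH7) and each somite stage up to 10ss. There are 4 libraries per stage, except 3 each at 6ss, 8ss and 10ss, and a library pooled the tissue of several embryos. At HH5 and HH6 patches lateral to the primitive streak were cut at the prospective midbrain level. From 1ss to 7ss the neural plate border or the tip of the neural fold was taken, and from 8ss onward the dorsal neural tube with the crest cells leaving it, so that a change of stage and a change of dissection cannot be told apart between HH6 and 1ss and between 7ss and 8ss. At which stages from 1ss to 7ss the border was cut, and at which the fold tip, is not stated. A shift between these pieces therefore cannot be told apart from stage within 1ss to 7ss. In bulk tissue, fewer cells of a type and less RNA per cell cannot be told apart either.

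The neural crest forms at the border between the neural plate and the future epidermis, and its cells leave the dorsal neural tube and give rise to neurons, glia, pigment cells and facial skeleton. Snail-family repressors act in the loss of epithelial contacts that lets these cells leave. HES5 genes are repressors switched on by Notch signalling and are known in neural progenitors. FOXI factors act in early non-neural ectoderm and placodes, and secreted Frizzled-related proteins bind Wnt ligands outside the cell.

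The libraries held 15.4 to 30.5 M reads in genes (median 22.9 M), and 5.34 to 6.77% of these reads fell on genes without a symbol. A count of 3 reads, taken here as the limit of detection, was worth 0.0984 to 0.195 CPM depending on the library. The libraries numbered 4 resembled one another: over 1ss to 7ss their deviations from the stage means correlated in all 15 pairs (r of 0.115 to 0.404), against 11 of 63 pairs above 0.1 for the libraries numbered 1 to 3. Without the libraries numbered 4 the rule picks 66 genes. HH6 replicate 1 was above all 3 other HH6 libraries in 24 of the 41 early-high genes. It was below all 3 other HH6 libraries in 11 of the 28 late-high genes. The late-high genes summed to 110 CPM in it, against 124, 99.5 and 101 CPM in the others. No share over all genes is given for either count, so they are a description only. Without HH6 replicate 1 the rule picks 71 genes.

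The genes were selected on their mean CPM at HH5 and HH6 and at 8ss to 10ss, and these values are given here as a description. The ratio of the late to the early mean was 4.40 to 24.7 in the late-high genes (median 8.17), and the inverse ratio was 4.02 to 75.4 in the early-high genes (median 6.73). Of all 18525 genes, 0.653% pass level and ratio upward and 1.05% downward. Among genes that reach the level, 6.18% of those without a symbol pass, against 3.17% of those with one (246 of 7758). Over all genes, whether or not they reach the level, the order was the other way. Of the 6280 genes without a symbol 1.1% passed both conditions, against 2.01% of the 12245 with one. Just inside the upper limit lay SNAI2 (ratio 4.40) and ENSGALG00000042443 (4.63), and just outside it TSPAN7 (3.90) and VSIG10L (3.79). Just inside the lower limit lay ENSGALG00000049919 (inverse ratio 4.02) and SLC12A3 (4.09), and just outside it MYO16 (3.89) and UPK3BL (3.87). All 28 late-high genes had every late library above every early one, where 3.7% of all genes do. Of the early-high genes, 29 of 41 had every late library below every early one, where 3.79% of all genes do; the choice of genes by the same libraries fixes much of this. Low levels limited many single values: 16 of 28 late-high genes had more than 3 reads in every early library, and 20 of 41 early-high genes had more than 3 reads in every late library.

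The summed level of each set followed the stages in different ways. The late-high genes together reached 701 ± 111 CPM at 8ss to 10ss (SD, n = 10), against 92.1 ± 19.2 CPM at HH5 and HH6 (SD, n = 8). Between these ends they summed to 152 ± 44.2 CPM at 1ss to 3ss (n = 12), 594 ± 248 CPM at 4ss to 6ss (n = 11) and 701 ± 104 CPM at 7ss (n = 4). SNAI2 alone averaged 208 CPM at 8ss to 10ss and 432 CPM at 7ss. The other 27 late-high genes summed to 492.5 ± 124 CPM at 8ss to 10ss (SD, n = 10), against 45.2 ± 11.3 CPM at HH5 and HH6 (SD, n = 8), and between these to 74.0 ± 22.2 CPM at 1ss to 3ss, 222 ± 62.4 CPM at 4ss to 6ss and 269 ± 35.0 CPM at 7ss. Without SNAI2 every 7ss library was below every library of 8ss to 10ss. The choice of genes by the 8ss to 10ss libraries fixes part of this gap, and the dissection also changed between 7ss and 8ss. The early-high genes together were at 90.3 ± 12.5 CPM at 8ss to 10ss, against 1023 ± 498 CPM at HH5 and HH6, with 359 ± 61 CPM at 1ss to 3ss, 194 ± 45 CPM at 4ss to 6ss and 110 ± 10.9 CPM at 7ss. On this scale the widest gap between these pooled groups was that between 1ss to 3ss and the earliest stages, but HH5 and HH6 themselves differed. The early-high genes summed to 1137 to 1798 CPM in the HH5 libraries and to 449 to 838 CPM in those of HH6. At 1ss to 3ss they summed to 290 to 478 CPM. These sums lean on the genes with the highest levels. The mean at HH5 and HH6 was 201 CPM in LOC395991, against a median of 9.49 CPM over the early-high genes.

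The midpoint stage of a gene is the first stage from which its mean, on the scale log2(CPM + 0.5), stayed past the midpoint between its early and late means. Among the late-high genes 6 passed it before 4ss, 13 at 4ss to 6ss and 9 at 7ss or later, with 7 of these at 8ss. Among the early-high genes 21 passed it before 4ss, 17 at 4ss to 6ss and 3 at 7ss or later. These 3 intervals held 21.4%, 46.4% and 32.1% of the late-high genes, against 12.9%, 62.4% and 24.7% of the 93 genes with a symbol that pass level and ratio upward. They held 51.2%, 41.5% and 7.32% of the early-high genes, against 52.3%, 38.6% and 9.15% of the 153 genes with a symbol that pass downward. No test was made of these shares. The stage depends on the scale: on linear CPM only 16 of 69 genes kept their midpoint stage, 20 late-high genes moved to a later one and 33 early-high genes to an earlier one.

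The highest stage mean was at 10ss in 18 of the 28 late-high genes and at HH5 in 34 of the 41 early-high genes. Both stages took part in choosing the genes, as did HH6, which fixes much of these counts. No share over all genes is given for them or for the steps below, and they are a description only. The largest single step of an early-high gene ended at HH6 in 20 cases, and 23 of 41 had an HH6 mean below 50% of their HH5 mean. Steps in the late-high genes were spread out: the largest ended at HH6 in 5, at 4ss in 4, at 5ss in 4, at 6ss in 5 and at 8ss in 6. A stage mean at least 2-fold above both ends was found in 3 genes, SNAI2 (595 CPM at 6ss), ENSGALG00000052886 (45.9 CPM at 5ss) and MGAM (19.1 CPM at 1ss).

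**Figure D1:**
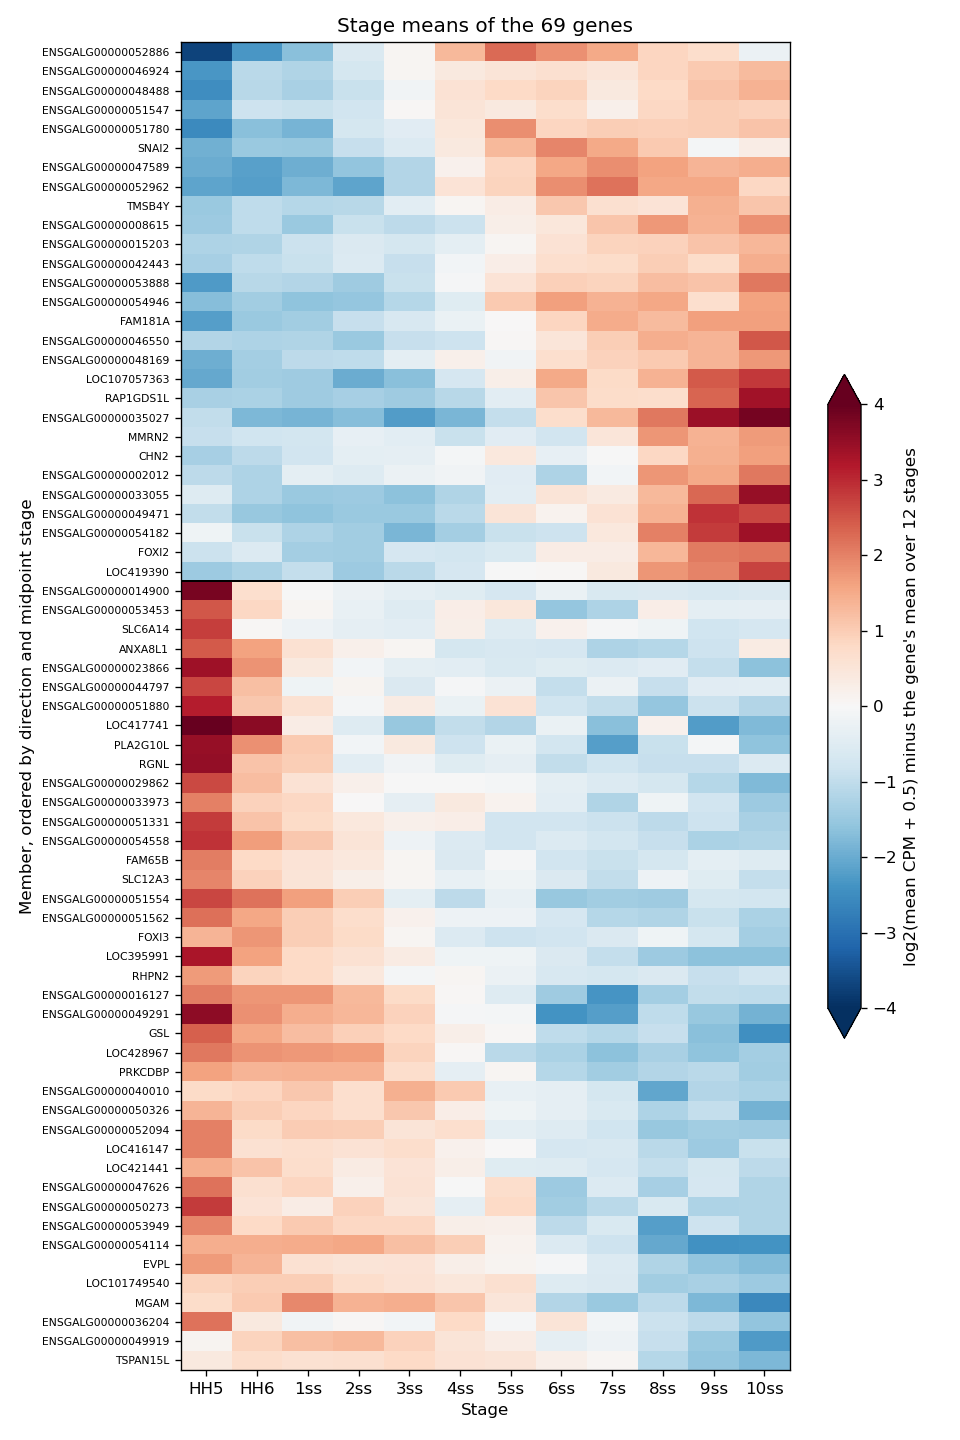
Stage means of all 69 genes. Each row is a gene, late-high genes above the black line and early-high genes below it, ordered by midpoint stage; columns are the 12 stages from HH5 to 10ss, and the colour gives log2(mean CPM + 0.5) minus the gene's own mean over the stages, cut at -4 and 4. The upper block turns red between 2ss and 8ss, and in the lower block HH5, a stage that the choice of genes used, is the highest in 34 of 41 rows.

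The 27 libraries of 1ss to 7ss took no part in choosing the genes, and tests were made in them. Their stages lie between the ends that the rule compared, so calls in the direction of the rule were in part to be expected. A gene was called where edgeR's quasi-likelihood test gave a Benjamini-Hochberg adjusted p below 0.05 over all 18525 genes and the absolute log2 fold change was above 0.75. At 4ss to 6ss against 1ss to 3ss, 24 of 28 late-high genes were called higher, where 3.91% of all genes were, and 24 of 41 early-high genes were called lower, where 3.2% of all genes were. No late-high gene was called lower and no early-high gene higher. The median log2 fold change was 1.54 in the late-high genes and -1.03 in the early-high genes, beside 0.01 over all genes. Every library of 4ss to 6ss was above every library of 1ss to 3ss in 6 late-high genes, as in 0.259% of all genes, and every one was below in 0 early-high genes, as in 0.0918% of all genes. Genes with a symbol that pass level and ratio gave similar counts, 74 of 93 called higher and 97 of 153 called lower. Of the 1048 symbol-less genes that reach the level but not the ratio, 27 were called higher and 21 lower. The choice by ratio in part sets both sides of this comparison, so it is given as a description only.

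Over the whole interval, at 7ss against 1ss to 3ss, 24 late-high genes were called higher (4.91% of all genes) and 27 early-high genes lower (4.84% of all genes), with median log2 fold changes of 2.44 and -1.70. A trend across the 7 stages, tested as a slope per somite at an adjusted p below 0.05 alone, was called upward in 26 of 28 late-high genes (8.79% of all genes) and downward in 33 of 41 early-high genes (8.18% of all genes). The median slopes were 0.51 and -0.30 log2 units per somite. Genes known only by an identifier were called too: at 4ss to 6ss against 1ss to 3ss, 17 of 19 late-high genes without an Entrez identifier were called, against 7 of 9 with one, and 12 of 22 early-high genes without one, against 12 of 19 with one. The difference between these shares was not tested.

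At 7ss against 4ss to 6ss 5 late-high genes were called higher (1.63% of all genes) and 5 early-high genes lower (1.4% of all genes). At an unadjusted p below 0.05, 15 and 16 moved that way. No share over all genes is given for this limit, so these counts have nothing to be judged against and are a description only. The count of adjusted calls in both directions together, 10, depended on single libraries. It was 3 without 7ss replicate 2 and 6 without 7ss replicate 1, and DESeq2 called 16. It was also 16 with a term for the libraries numbered 4, which resembled one another, and 18 with a replicate block. Calls over all genes moved as well: 302 higher and 259 lower became 748 with DESeq2, 665 with that term and 628 with the block. They were 436 without 7ss replicate 2 and 482 without 7ss replicate 1. Genes with a symbol that pass level and ratio were called in larger shares here, 42 of 93 higher (45.2%) and 47 of 153 lower (30.7%), against 17.9% of the late-high and 12.2% of the early-high genes, a difference that was not tested. ENSGALG00000035027, FAM181A and ENSGALG00000016127 were called in all 27 fits that each left out 1 library, and ENSGALG00000008615, MMRN2, ENSGALG00000015203, MGAM, ENSGALG00000051562, PLA2G10L and GSL were called in 15 to 24 of them.

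**Figure D2:**
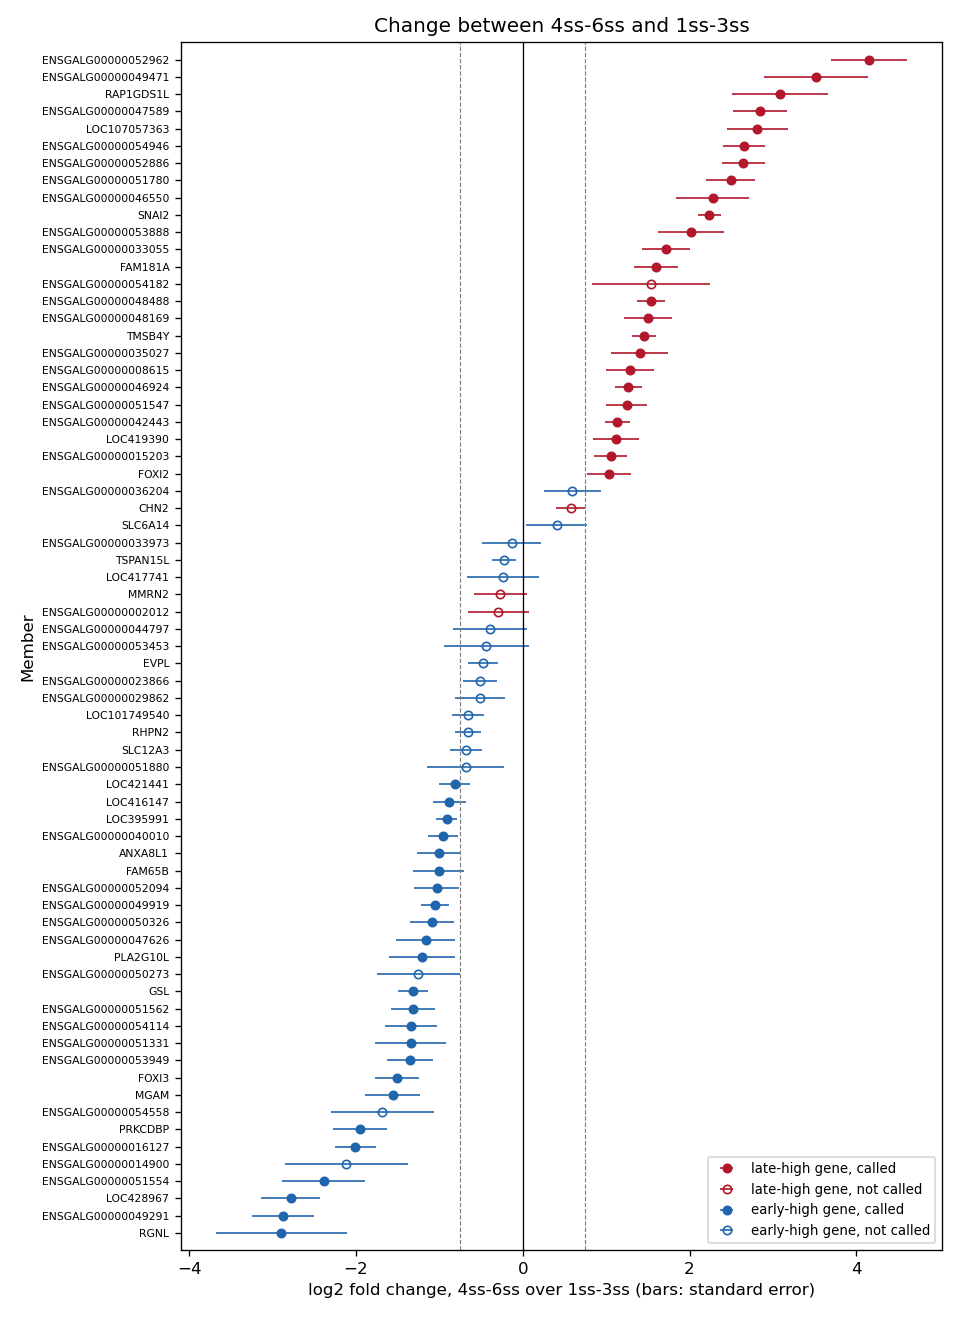
Change of each gene in libraries that the choice of genes did not use. The x axis is the log2 fold change at 4ss to 6ss over 1ss to 3ss with its standard error, rows are the 69 genes, filled circles mark calls by edgeR's quasi-likelihood test and dashed lines mark 0.75 and -0.75. In red, 24 of 28 late-high genes are filled and to the right, and in blue, 24 of 41 early-high genes are filled and to the left.

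Of the 5 transcription factor genes 4 were late-high, and all 5 were called at 4ss to 6ss against 1ss to 3ss. SNAI2 (ENSGALG00000030902), the Snail-family repressor long used as a neural crest marker, is identified in the table by its description and Entrez identifier. It had 479, 491, 337 and 422 CPM at 7ss. At 4ss to 6ss its 11 libraries had 184 to 711 CPM (median 265), against 39.6 to 136 CPM (median 77.1) in the 12 libraries of 1ss to 3ss. No library of 4ss to 6ss overlapped those of 1ss to 3ss, and the log2 fold change was 2.23 (SE 0.14, edgeR quasi-likelihood test, Benjamini-Hochberg adjusted p = 2.3e-12). Its slope, 0.61 log2 units per somite (SE 0.04, edgeR quasi-likelihood test, Benjamini-Hochberg adjusted p = 3.3e-12), had the smallest adjusted p among the late-high genes. After the 6ss maximum of 595 ± 106 CPM (SD, n = 3) the stage means were 432 CPM at 7ss, 316 CPM at 8ss, 143 CPM at 9ss and 188 CPM at 10ss. Its ratio of the late to the early mean, 4.40, was the lowest of the late-high genes.

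Both HES5-like genes were late-high. LOC107057363 (ENSGALG00000027002, described as transcription factor HES-5-like) had 3.81 to 35.0 CPM at 8ss to 10ss (median 13.0), against 0.151 to 1.67 CPM (median 0.447) at HH5 and HH6. In the stages between, it had 0.370 to 12.7 CPM at 4ss to 6ss (median 2.40), against 0.0395 to 0.948 CPM at 1ss to 3ss (median 0.576), a log2 fold change of 2.81 (SE 0.37, edgeR quasi-likelihood test, Benjamini-Hochberg adjusted p = 2.5e-06). The stage means show a first high at 6ss, 9.00 ± 3.24 CPM (n = 3), and a second climb to 23.3 ± 0.784 CPM at 10ss (n = 3). LOC419390 (ENSGALG00000001136, hairy and enhancer of split 5-like) had 3.72 to 37.7 CPM at 8ss to 10ss (median 23.5), against 0.833 to 2.06 CPM at HH5 and HH6 (median 1.56). Its change within 1ss to 7ss was smaller, with 1.07 to 7.49 CPM at 4ss to 6ss (median 3.93), against 0.774 to 3.38 CPM at 1ss to 3ss (median 1.75) and a log2 fold change of 1.12 (SE 0.28, edgeR quasi-likelihood test, Benjamini-Hochberg adjusted p = 0.0056). The groups overlapped in both genes.

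In RefSeq (assembly GRCg7b, used only for the order of genes) LOC419390, LOC107057363 and the named gene HES5 follow one another on the chromosome. HES5 is not among the 69 genes and was looked at after these values were seen. It had 3.39 to 30.6 CPM at 8ss to 10ss (median 13.9), against 0.261 to 2.39 CPM at HH5 and HH6 (median 1.17), a ratio of 9.82, and at 4ss to 6ss against 1ss to 3ss its log2 fold change was 1.89 (edgeR quasi-likelihood test, Benjamini-Hochberg adjusted p = 0.0064). Genes of 1 family can share reads. The study's methods describe the reads in genes as uniquely mapped. The depth they give for such reads is higher than that of the deposited counts, so whether the description covers these counts is uncertain. How alike the 3 genes are in sequence was not measured here, so the split of the level among them is uncertain.

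The 2 FOXI genes went in opposite directions. FOXI2 (ENSGALG00000044849) had 7.77 to 27.7 CPM at 8ss to 10ss (median 10.3), against 1.01 to 2.74 CPM at HH5 and HH6 (median 1.67). At 7ss it had 1.88, 3.66, 8.05 and 3.11 CPM, against 0.472 to 3.66 CPM at 1ss to 3ss (median 1.09), and the log2 fold change was 1.80 (SE 0.33, edgeR quasi-likelihood test, Benjamini-Hochberg adjusted p = 0.00026). FOXI3 (ENSGALG00000037457) had 0.711 to 3.81 CPM at 8ss to 10ss (median 1.97), against 8.36 to 15.4 CPM at HH5 and HH6 (median 11.2). It had 0.860 to 4.75 CPM at 4ss to 6ss (median 1.64), against 2.44 to 10.3 CPM at 1ss to 3ss (median 5.62), and fell by 1.51 on the log2 scale (SE 0.26, edgeR quasi-likelihood test, Benjamini-Hochberg adjusted p = 0.00019). The midpoint stage was 8ss for FOXI2 and 3ss for FOXI3.

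**Figure D3:**
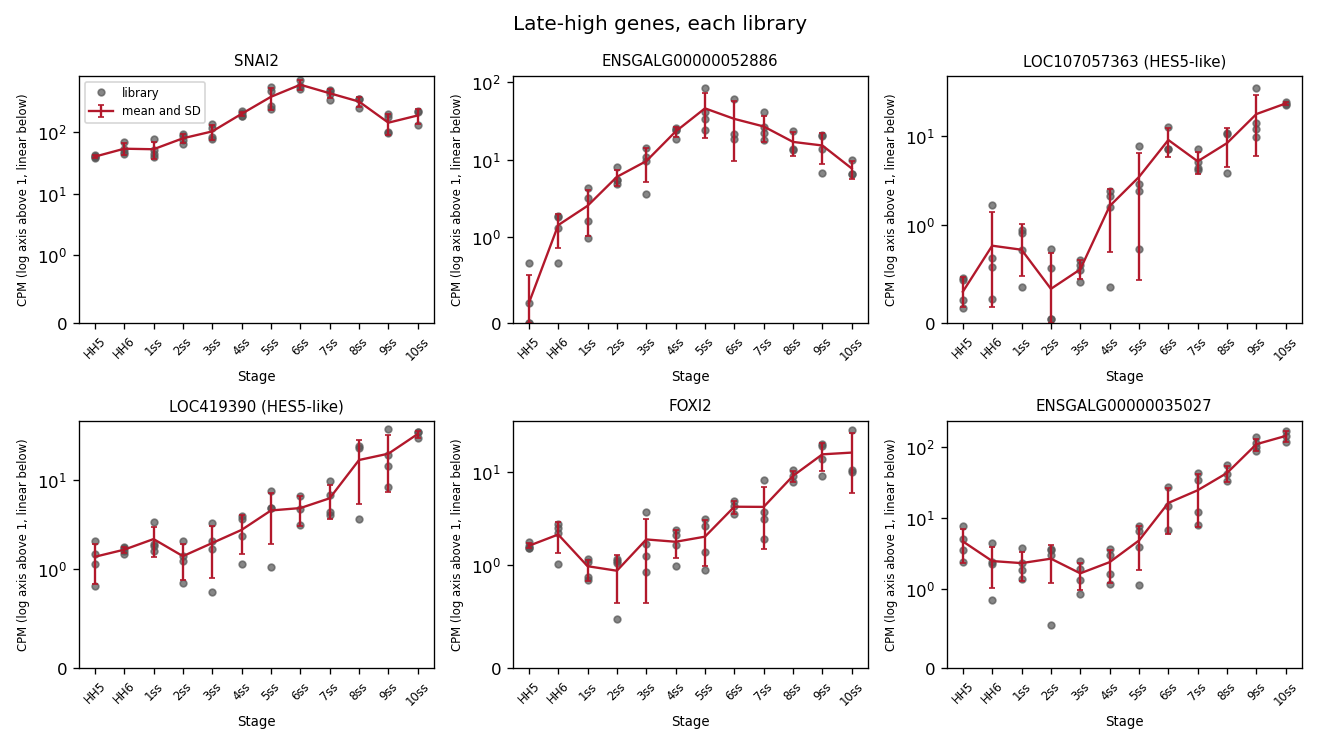
Late-high genes in every library. The y axis is CPM, logarithmic above 1 and linear below it; grey points are libraries, the red line joins stage means and bars show the SD, cut at 0. SNAI2 peaks at 6ss with a mean of 595 CPM and ENSGALG00000052886 at 5ss with 45.9 CPM, while both HES5-like genes, FOXI2 and ENSGALG00000035027 have their highest mean at 10ss.

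The other annotated late-high genes were of mixed function. RAP1GDS1L, like a stimulator of GDP release from small GTPases, had 0.604 to 18.6 CPM at 8ss to 10ss (median 7.15), against at most 0.232 CPM at HH5 and HH6. Its log2 fold change at 7ss against 1ss to 3ss was 4.58 (SE 0.64, edgeR quasi-likelihood test, Benjamini-Hochberg adjusted p = 5.0e-06), 3.88 without 7ss replicate 1 and 5.23 without 1ss replicate 1, and it was close to or below the limit of detection in the earlier libraries. FAM181A, of unknown function, had 8.64, 6.83, 5.86 and 6.90 CPM at 7ss, against 0.849 to 6.53 CPM at 4ss to 6ss (median 2.46), a log2 fold change of 1.46 (SE 0.32, edgeR quasi-likelihood test, Benjamini-Hochberg adjusted p = 0.0066). Its level was then held, with stage means of 6.05 to 8.02 CPM from 8ss to 10ss. TMSB4Y, the RefSeq name of a thymosin beta gene (a family of actin-binding peptides), had 8.54 to 22.7 CPM at 4ss to 6ss (median 12.4), against 3.26 to 8.52 CPM at 1ss to 3ss (median 4.00), with no overlap and a log2 fold change of 1.46 (SE 0.14, edgeR quasi-likelihood test, Benjamini-Hochberg adjusted p = 1.5e-08).

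CHN2, a chimerin that switches off the GTPase Rac, and MMRN2, a multimerin of the matrix around vessel walls, changed mainly at the end of the series. CHN2 had 7.08 to 24.3 CPM at 8ss to 10ss (median 12.8), against 1.22 to 3.33 CPM at HH5 and HH6 (median 2.22). At 4ss to 6ss against 1ss to 3ss it differed by a log2 fold change of 0.57 (SE 0.17, edgeR quasi-likelihood test, Benjamini-Hochberg adjusted p = 0.024), below the threshold on size. MMRN2 had 7.57 to 19.6 CPM at 8ss to 10ss (median 9.49), against 0.416 to 2.92 CPM at HH5 and HH6 (median 1.53), and 2.03, 3.66, 9.21 and 4.14 CPM at 7ss. A list of 7 blood and vessel markers, 6 of which were found, moved in the same interval: its summed level was 8.96 to 54.1 CPM at 8ss to 10ss, 6.27 to 11.5 CPM at 7ss and 21.7 to 57.1 CPM at HH5 and HH6. Its genes differed in direction. CDH5 (2.98 CPM late, 0.482 CPM early), LMO2 (7.49 and 5.43) and HBBR (0.541 and 0.106) had higher late means. KDR (9.68 and 23.3), TAL1 (2.77 and 3.68) and HBZ (0.728 and 0.956) had lower ones. The part of these markers in the level of MMRN2 was not tested.

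The late-high genes without any annotation include the one with the largest ratio. ENSGALG00000035027 had 33.2 to 172 CPM at 8ss to 10ss (median 107), against 0.867 to 7.93 CPM at HH5 and HH6 (median 2.98), a ratio of 24.7. Stage means were 1.68 CPM at 3ss, 16.5 CPM at 6ss, 43.7 CPM at 8ss and 145 CPM at 10ss. It had 35.3, 43.8, 12.3 and 8.17 CPM at 7ss, against 1.13 to 27.6 CPM at 4ss to 6ss (median 3.91), with overlap and a log2 fold change of 2.11 (SE 0.42, edgeR quasi-likelihood test, Benjamini-Hochberg adjusted p = 0.0025). Over the 12 stage means on the log2 scale, the named genes most like it among 8154 were EN2 (r = 0.982), COL9A3 (0.979) and MAB21L2 (0.978). For SNAI2 they were SEMA3D (0.993), RIPPLY3 (0.985) and PLOD1 (0.983). The points of these correlations are stages whose tissue was cut alike for all genes, and no p is given.

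ENSGALG00000052886 was the gene with the clearest transient. It had 18.2 to 84.6 CPM at 4ss to 6ss (median 24.4), against 0.988 to 14.0 CPM at 1ss to 3ss (median 5.19). The groups did not overlap, and the log2 fold change was 2.64 (SE 0.26, edgeR quasi-likelihood test, Benjamini-Hochberg adjusted p = 1.4e-08). Its stage means were 0.231 CPM at HH5, 9.55 CPM at 3ss, 45.9 CPM at 5ss, 26.8 CPM at 7ss and 7.68 CPM at 10ss. The 5ss libraries ranged from 24.1 to 84.6 CPM, so the height of the maximum is known less well than its place between 4ss and 7ss.

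Other identifiers changed within 1ss to 7ss, and their later courses differed. ENSGALG00000052962 had 1.90 to 12.6 CPM at 4ss to 6ss (median 3.82), against 0 to 1.18 CPM at 1ss to 3ss (median 0.25), without overlap, and its log2 fold change of 4.16 (SE 0.46, edgeR quasi-likelihood test, Benjamini-Hochberg adjusted p = 1.4e-07) was the largest of the 69 genes. In only 6 of the 12 libraries of 1ss to 3ss did it have more than 3 reads, so the size of the fold is poorly known: it was 5.66 without 2ss replicate 3 and called in all 27 fits that each left out 1 library. It had its highest mean, 11.6 CPM, at 7ss, and averaged 6.39 CPM at 8ss to 10ss. ENSGALG00000047589 had a slope of 0.81 log2 units per somite (SE 0.08, edgeR quasi-likelihood test, Benjamini-Hochberg adjusted p = 7.0e-10), with 14.1, 11.3, 39.7 and 6.98 CPM at 7ss, against 0.236 to 2.94 CPM at 1ss to 3ss (median 1.2), and averaged 13.7 CPM at 8ss to 10ss, against 18.01 CPM at 7ss. ENSGALG00000054946 had a slope of 0.77 (SE 0.07, edgeR quasi-likelihood test, Benjamini-Hochberg adjusted p = 3.3e-10), and FAM181A one of 0.59 (SE 0.06, edgeR quasi-likelihood test, Benjamini-Hochberg adjusted p = 8.9e-10). ENSGALG00000048488 had 35.3 to 151 CPM at 8ss to 10ss (median 90.1), against 5.41 to 21.2 CPM at HH5 and HH6, and was already at 35.3 to 99.7 CPM at 4ss to 6ss (median 75.4), against 12.9 to 55.1 CPM at 1ss to 3ss (median 23.3), a log2 fold change of 1.54 (SE 0.17, edgeR quasi-likelihood test, Benjamini-Hochberg adjusted p = 1.6e-07). ENSGALG00000049471 and ENSGALG00000033055 had a midpoint stage of 8ss, with means of 8.85 ± 4.94 and 16.8 ± 12.7 CPM at 8ss to 10ss (SD, n = 10), against 0.209 ± 0.170 and 1.09 ± 0.569 CPM at HH5 and HH6 (SD, n = 8). Both were nevertheless called higher already at 4ss to 6ss against 1ss to 3ss, in all 27 fits that each left out 1 library. Over these fits the log2 fold change was 3.11 to 4.92 in ENSGALG00000049471 and 1.54 to 1.90 in ENSGALG00000033055.

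Secreted, matrix and cytoskeletal proteins were 5 of the early-high genes, and 3 of them were called lower at 4ss to 6ss against 1ss to 3ss. The secreted Wnt-binding proteins among them had the largest inverse ratios of the annotated genes. LOC417741 (ENSGALG00000008635), described as secreted frizzled-related protein 2-like, had 0.0738 to 10.4 CPM at 8ss to 10ss (median 0.960), against 205, 393, 218 and 420 CPM at HH5 and 147, 64.3, 8.50 and 11.2 CPM at HH6. The inverse ratio was 75.4, and the 8ss library with 10.4 CPM overlapped the lowest HH6 library. Nearly all of its change lay before the first somite, since the stage mean was 5.31 CPM at 1ss. From 1ss to 7ss it had a slope of -0.24 log2 units per somite (SE 0.10, edgeR quasi-likelihood test, Benjamini-Hochberg adjusted p = 0.12), which was not called, although without 6ss replicate 2 the slope was -0.33 with an adjusted p of 0.016.

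LOC395991 (ENSGALG00000006944) is crescent, a Frizzled-related Wnt antagonist first described in the chick hypoblast and anterior endoderm. It had 6.55 to 15.4 CPM at 8ss to 10ss (median 9.36), against 305, 254, 214 and 445 CPM at HH5 and 93.3, 66.8, 93.1 and 134 CPM at HH6. Its stage means kept going down to 9ss. It had 14.2 to 35.9 CPM at 4ss to 6ss (median 24.6), against 31.3 to 67.1 CPM at 1ss to 3ss (median 48.1), a log2 fold change of -0.91 (SE 0.13, edgeR quasi-likelihood test, Benjamini-Hochberg adjusted p = 6.1e-06). Its slope was -0.30 log2 units per somite (SE 0.03, edgeR quasi-likelihood test, Benjamini-Hochberg adjusted p = 1.4e-09). The named genes whose stage means were most like it were GATA2 (r = 0.986), CSNK2A2 (0.981) and EPHA1 (0.981), and for LOC417741 they were CDX4 (0.983), APOA1 (0.979) and TRIM55 (0.975).

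The others were structural and membrane-bound proteins. EVPL, envoplakin, a plakin of the cornified envelope and desmosomes, had 1.17 to 3.30 CPM at 8ss to 10ss (median 2.29), against 13.4 to 36.2 CPM at HH5 and HH6 (median 20.5). At 7ss it had 4.00, 4.93, 2.93 and 6.98 CPM, all below the 7.72 to 14.6 CPM of 1ss to 3ss (median 10.3), a log2 fold change of -1.19 (SE 0.26, edgeR quasi-likelihood test, Benjamini-Hochberg adjusted p = 0.002). ANXA8L1, an annexin (a calcium-dependent membrane-binding protein), had 5.72 to 22.9 CPM at 8ss to 10ss (median 9.10), against a median of 73.7 CPM and at most 117 CPM at HH5 and HH6. LOC421441, described as a spectrin beta chain, had 5.59 to 10.9 CPM, against 27.4 to 50.3 CPM. Both were called lower at 4ss to 6ss against 1ss to 3ss, LOC421441 not without 3ss replicate 2, where its log2 fold change was -0.74.

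**Figure D4:**
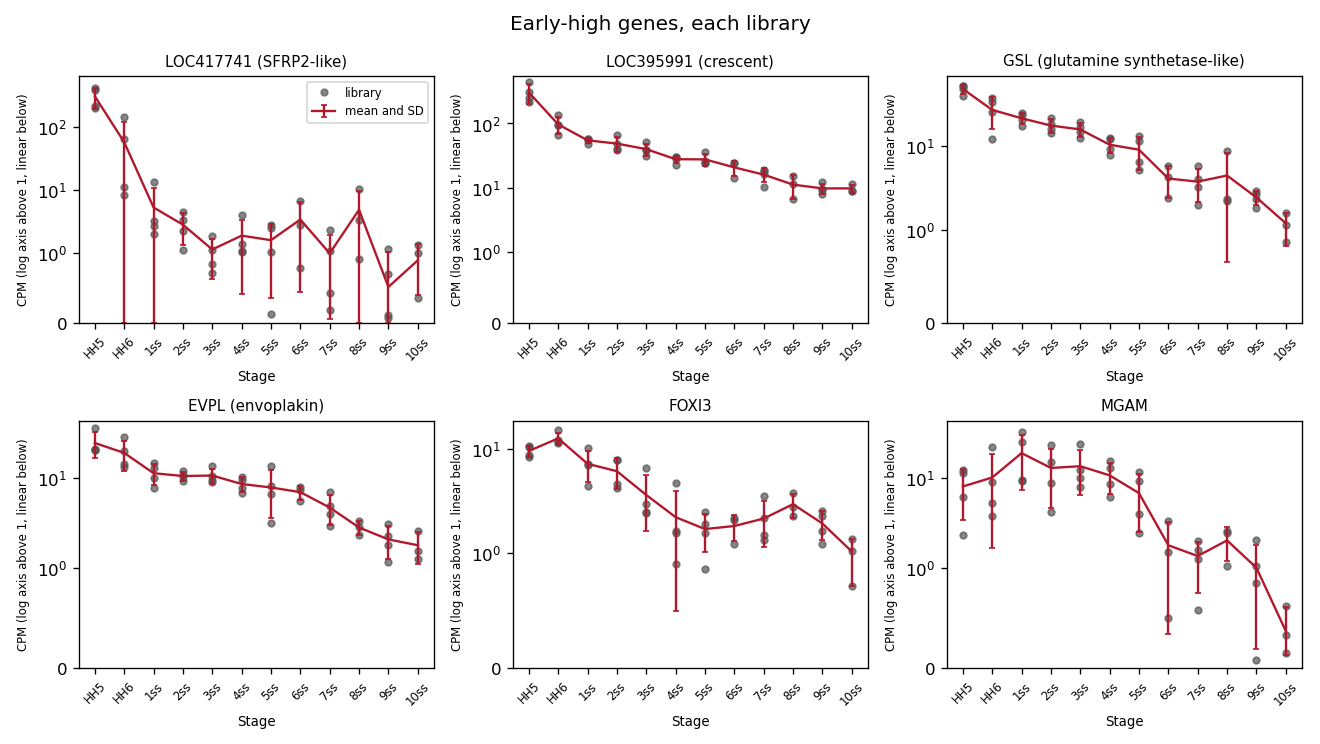
Early-high genes in every library. Axes, points, lines and bars are as in the plot of late-high genes, with SD bars cut at 0. LOC417741 has 205 to 420 CPM at HH5 and a mean of 5.31 CPM at 1ss, whereas LOC395991, GSL and EVPL go down over many stages and MGAM has its highest mean, 19.1 CPM, at 1ss.

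Of the 5 early-high genes of signalling and adhesion, 3 were called lower at 4ss to 6ss against 1ss to 3ss. LOC428967, like the pi subunit of the GABA receptor (a chloride channel subunit known mainly outside the brain in mammals), had 0.1 to 4.14 CPM at 4ss to 6ss (median 0.870), against 3.06 to 10.1 CPM at 1ss to 3ss (median 6.58), a log2 fold change of -2.79 (SE 0.36, edgeR quasi-likelihood test, Benjamini-Hochberg adjusted p = 2.0e-06). Its slope of -0.88 per somite (SE 0.09, edgeR quasi-likelihood test, Benjamini-Hochberg adjusted p = 3.5e-09) was the steepest of the early-high genes, and by 8ss to 10ss it had at most 1.30 CPM. PRKCDBP is listed under the name of a caveola coat protein of the cavin family. It had 0.425 to 2.74 CPM at 4ss to 6ss (median 1.42), against 1.43 to 9.71 CPM at 1ss to 3ss (median 6.42). It fell by 1.95 on the log2 scale (SE 0.32, edgeR quasi-likelihood test, Benjamini-Hochberg adjusted p = 7.6e-05). RHPN2 had a log2 fold change of -0.66 (SE 0.16, edgeR quasi-likelihood test, Benjamini-Hochberg adjusted p = 0.0041) in that comparison, below the threshold on size. FAM65B was called lower there, though this call was lost when 1ss replicate 4, when 2ss replicate 1 or when 6ss replicate 3 was left out (log2 fold changes of -1.15 to -0.85 over all such fits), and a tetraspanin listed as TSPAN15L was not called.

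Of the genes with an Entrez identifier, 7 of 19 early-high and 0 of 9 late-high genes were enzymes or transporters, a difference that was not tested. Of the 7, 5 were called lower at 4ss to 6ss against 1ss to 3ss. GSL, glutamine synthetase-like, had 0.871 to 8.84 CPM at 8ss to 10ss (median 2.26), against 48.0, 51.4, 40.0 and 52.6 CPM at HH5 and 37.0, 33.4, 12.2 and 25.3 CPM at HH6. Its slope was -0.43 per somite (SE 0.04, edgeR quasi-likelihood test, Benjamini-Hochberg adjusted p = 4.9e-09). MGAM, maltase-glucoamylase, an enzyme of starch digestion, was highest between the ends that the rule compared. It had 0.502 to 15.4 CPM at 4ss to 6ss (median 6.29), against 4.22 to 32.6 CPM at 1ss to 3ss (median 11.4), a log2 fold change of -1.56 (SE 0.33, edgeR quasi-likelihood test, Benjamini-Hochberg adjusted p = 0.0014). PLA2G10L, like a secreted phospholipase A2, had 0.0518 to 8.48 CPM at 8ss to 10ss (median 1.42), against 49.3, 35.8, 26.3 and 61.2 CPM at HH5 and 20.3, 14.4, 9.78 and 8.91 CPM at HH6. Its call at 4ss to 6ss against 1ss to 3ss held in 13 of 27 fits that each left out 1 library. SLC6A14, an amino acid transporter, had at most 2.10 CPM at 8ss to 10ss, against 0.347 to 16.2 CPM at HH5 and HH6. RGNL, regucalcin-like, had at most 0.376 CPM, against 0.902 to 14.5 CPM, and lies next to the named gene RGN, which had 41.5 to 236 CPM at 8ss to 10ss, against 183 to 1263 CPM at HH5 and HH6. Reads shared between RGNL and RGN were not examined. The other 2 of the 7 were SLC12A3, an ion cotransporter, and LOC416147, described as a ubiquitin and ISG15 ligase like TRIM25, with 1.35 to 9.99 and 0.183 to 3.47 CPM late, against 6.34 to 39.9 and 5.35 to 27.4 CPM early.

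Early-high genes without annotation also varied in level and course. ENSGALG00000016127 had 1.79, 0.536, 1.72 and 1.38 CPM at 7ss, against 1.52 to 18 CPM at 4ss to 6ss (median 4.64), a log2 fold change of -2.03 (SE 0.39, edgeR quasi-likelihood test, Benjamini-Hochberg adjusted p = 0.002). Its slope was -0.73 (SE 0.06, edgeR quasi-likelihood test, Benjamini-Hochberg adjusted p = 4.1e-11), the smallest adjusted p of the early-high genes, with stage means of 31.6 CPM at 1ss and 1.36 CPM at 7ss, and 3.22 to 4.30 CPM from 8ss to 10ss. ENSGALG00000023866 averaged 4.21 ± 2.62 CPM at 8ss to 10ss (SD, n = 10), against 62.3 ± 42.4 CPM at HH5 and HH6 (SD, n = 8). ENSGALG00000049291 averaged 0.730 ± 0.523 CPM, against 25.2 ± 23.3 CPM, and ENSGALG00000051880 averaged 0.299 ± 0.259 CPM, against 9.07 ± 10.1 CPM, so that in both the early libraries differed among themselves by about their mean. ENSGALG00000054114 was tighter early, with 0.304 ± 0.314 CPM against 10.3 ± 2.42 CPM, and kept a stage mean of 11 CPM at 2ss. ENSGALG00000014900 had at most 3 reads in every late library, against 0.270 to 14.6 CPM at HH5 and HH6 (median 5.18), and was at least 42.6-fold lower when its early mean is set against the mean CPM worth of 3 reads per library.

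Of the 69 genes, 10 had no called trend between 1ss and 7ss. The 2 late-high ones were ENSGALG00000002012, with a midpoint stage of 8ss, and MMRN2, with a midpoint stage of 7ss and a mean of 4.76 CPM at 7ss, against 1.82 CPM at 4ss to 6ss. ENSGALG00000002012 had 7.45 to 27.6 CPM at 8ss to 10ss (median 14.4), and its means were 3.67 CPM at 7ss, 2.7 CPM at 4ss to 6ss and 2.99 CPM at 1ss to 3ss. The 8 early-high ones were SLC6A14, LOC417741, ENSGALG00000014900, ENSGALG00000036204, ENSGALG00000044797, ENSGALG00000050273, ENSGALG00000051880 and ENSGALG00000053453, all highest at HH5. Changes outside 1ss to 7ss were not tested here.

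Summed levels of marker genes for other tissues moved with the early-high genes between the pooled stages, but not in every library. The 7 endoderm markers, all found, summed to 4.73 to 10.6 CPM at 8ss to 10ss, against 64.6 to 391 CPM at HH5 and HH6. At HH6 they summed to 273 CPM in replicate 1, against 120, 64.6 and 76.2 CPM in the others, the library that was also highest in 24 of 41 early-high genes. The 9 streak and mesoderm markers summed to 42.9 to 185 CPM late, against 240 to 666 CPM early, and the 7 epidermis and placode markers to 109 to 211 CPM late, against 565 to 1497 CPM early. Within the tested stages the endoderm markers summed to 4.05 to 19.1 CPM at 4ss to 6ss, against 10.9 to 120 CPM at 1ss to 3ss, the streak and mesoderm markers to 39.9 to 132 CPM, against 119 to 568.4 CPM, and the epidermis and placode markers to 121 to 195 CPM, against 226 to 808 CPM. The 10 neural crest markers, of which SNAI2 is one, summed to 947 to 1833 CPM late, against 193 to 521 CPM early, and to 607 to 1972 CPM at 4ss to 6ss, against 226 to 450 CPM at 1ss to 3ss. Single genes held much of some sums. GATA3 averaged 63.3 CPM late and 771 CPM early in the epidermis and placode list, and GATA5 2.28 and 163 CPM in the endoderm list. EYA2, in the epidermis and placode list, went the other way (17.6 CPM late, 14.1 CPM early). TFAP2A, in the neural crest list, had nearly equal means (29.8 and 30.5 CPM). The other genes of these lists moved with their sum. The part of these tissues in the levels of single genes was not tested.

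The genes beside the annotated members were examined as well. In RefSeq order, 24 members have a gene with values directly beside them, which for LOC419390 is only another member, LOC107057363. Of the genes beside members, 34 named ones are no members themselves. At 4ss to 6ss against 1ss to 3ss 6 of the 34 were called in the direction of their neighbour and 0 against it, where 3.91% of all genes were called higher and 3.2% lower. By trend 9 were called with their neighbour, where 8.79% of all genes were called upward and 8.18% downward, and 1 against it, SRP68 beside EVPL. Level and ratio of the rule were met in the direction of the neighbour by 4 of the 34, where 0.653% of all genes pass upward and 1.05% downward: HES5, RGN, PLCXD1 beside RGNL (ratio 0.102) and ENTPD1 beside LOC428967 (ratio 0.177). No test of these numbers was made.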

How the data were processed

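Bulk RNA-seq libraries were made with an unstranded kit, sequenced as read pairs and mapped by the authors with STAR to GRCg6a, per the labels' processing notes (the notes and the methods name different STAR versions). The authors deposited whole-number counts per gene, the same counts for the 18525 of 24356 genes that exceed 5 reads somewhere, and a scaled signal per gene, equal to CPM after scaling by the trimmed mean of M-values (TMM). Filtered and unfiltered counts differed in 0 values. Replicates are pools of tissue from several embryos, per the methods, which do not state whether the pools of a stage were taken separately. The number of replicates of 10ss follows the titles.

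The genes were picked on the deposited signal. Tests used the deposited filtered counts of the 27 libraries of 1ss to 7ss in edgeR 4.0.16 (R 4.3.3, limma 3.58.1), TMM scaling and 7 stages as groups, or the somite number as a slope; DESeq2 1.42.0 was an alternative. The test was tried on simulated counts with 200 changed genes. Total counts per library were 15.4 to 30.5 M, and limits set by 3 reads cover counting error only. The members, gene lists and tests were chosen with earlier results of these data known. Named are the members with the largest and smallest ratios, the highest levels, the smallest trend p, transients, those at the ratio limits and, by function, up to 5 annotated ones a class. Neural plate, notochord, heart and germ cell marker lists were also examined: at 8ss to 10ss against HH5 and HH6 their median summed levels were 100.2 against 78.8 CPM, 11.8 against 31.1 CPM, 9.49 against 53.9 CPM and 2.61 against 15.4 CPM. Gene symbols for identifiers came from RefSeq (GRCg7b), matched by Entrez identifier for 28 members. RefSeq coordinates served only to order the genes along each chromosome. Alternatives were other tests, scalings, filters, pseudocounts, levels, a replicate block and leaving out libraries.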

Additional observations from a re-analysis of the deposited data

Results flagged for a closer look

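For 11 genes whose course is described, single libraries were compared with the rest of their group in 121 groups of 4 to 10 libraries, and 8 values stood apart by Dixon's criterion, where chance gives about 1 in 20 groups. The count is near that share, so the values are a description only. Some libraries were compared both within their stage and within a pooled group, so the groups are not independent. For LOC417741 these were 1ss replicate 1 (13.3 CPM, the next 3.20), 4ss replicate 1 (4.10 CPM, the next 1.38) and, among the 8ss to 10ss libraries, 8ss replicate 2 (10.4 CPM, the next 3.35). For LOC107057363 HH6 replicate 1 was highest of the HH5 and HH6 libraries (1.67 CPM, the next 0.657). The other 4 were all libraries numbered 4: FOXI2 at 2ss (0.472 CPM, the next 1.04), FOXI3 at 3ss (6.64 CPM, the next 2.94), LOC395991 at 5ss (35.9 CPM, the next 25.9) and EVPL at HH5 (36.2 CPM, the next 21.0).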

How the results depend on the processing

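The number of genes picked, 69, was 38 with a minimum of 10 CPM and 33 with a ratio of 8, between 61 and 101 with the other levels, pseudocounts and averages, and 65 to 72 without each of the 18 end libraries in turn. Of the 69, 48 were called at 4ss to 6ss against 1ss to 3ss (45 to 49 without each of the 27 libraries in turn), 51 at 7ss against 1ss to 3ss (47 to 53) and 59 by trend (55 to 60), and no other setting moved these counts by more than 1.5 times. Calls that stood in every such fit numbered 43, 47 and 53. At 7ss against 4ss to 6ss the 10 calls became 16 with DESeq2, 16 with a term for the libraries numbered 4 and 3 to 12 without each library in turn. Calls over all genes rose too, from 302 higher and 259 lower to 748 with DESeq2 and 665 with the term. The cause was not tested. Without all libraries numbered 4 the 4 counts were 48, 54, 54 and 11. The replicate numbers did not pair the libraries, apart from the likeness of those numbered 4: with a replicate block the counts were 49, 54, 59 and 18, and 11 of 27 libraries correlated best with one of their own number. The trend could not be fitted over all 45 libraries, since HH5 and HH6 have no somites. LOC417741 was called by trend with a term for the libraries numbered 4 (-0.28 per somite). Of 69 genes, 30 had a midpoint stage of 4ss to 6ss, 22 on linear CPM and 28 without the libraries numbered 4. Genes near 3 reads are limited by depth.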
